A study of Mus musculus with 2 samples.

Results

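Proliferating monocytic cells were 111 of the 1691 monocytic barcodes in 2 single-cell RNA libraries of GR-1+ cells from mouse 4T1 tumours, which hold 4390 barcodes in all, of which 3220 passed the limits on depth and quality. A barcode was kept with 250 to 5000 genes, at most 27000 unique molecular identifiers (UMIs, each 1 captured RNA molecule) and at most 12.5% of UMIs from mitochondrial genes. It was monocytic when Apoe, C1qa, Lyz2 and Csf1r together had at least 5 UMIs and more than S100a8, S100a9, G0s2 and Csf3r together. It was called proliferating when at least 3 of the 7 genes Top2a, Birc5, Ube2c, Cdk1, Mki67, Tyms and Cdca8 had a UMI, so the cells were chosen by measured values and every difference between them and the other 1580 monocytic barcodes in these genes, or in genes that follow them, is a description.

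The tumours grew in the mammary fat pad of female BALB/c mice aged 8 to 10 weeks, from 4T1 cells, a mouse triple-negative breast carcinoma line. The label 4T1p names parental 4T1 tumours, which resist anti-PD1, an antibody that blocks an inhibitory receptor of T cells. The label 4T1m names a polyclonal population of 4T1 cells mutagenised with MNNG, an alkylating agent, whose tumours respond to anti-PD1. Both groups of mice received anti-PD1 at 100 µg per mouse for up to 2 weeks, and GR-1+ cells were then positively selected with magnetic beads, so both libraries share the treatment and the selection.

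Each condition has 1 library, and the number of mice behind it is not given in the sources used here. There is therefore no spread between replicates, no p-value is given, and the 95% intervals are exact binomial or Poisson intervals that cover counting error only. In the library labelled 4T1p there are 1641 barcodes, 9021132 UMIs in total and 2066 in the median barcode. In the library labelled 4T1m there are 2749 barcodes, 14840190 UMIs in total and 2763 in the median barcode. They share 0 barcodes. The study's methods give a median of 2763 UMIs for 4T1p and 2066 for 4T1m, each the value found here under the other label. The tumour behind each library is therefore in doubt and was not settled here. Each direction between the libraries rests on the labels of the files and would turn if they were exchanged.

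A dividing cell copies its DNA in S phase and separates the copies in mitosis. S phase draws on helicases that open the DNA, on polymerases and sliding clamps at the replication fork, and on enzymes that make deoxynucleotides. Late in the cycle the cell makes mitotic cyclins and kinases, kinesin motors, kinetochore proteins and condensins, many of them under a repressor and activator complex that acts through the cell cycle homology region and CCAAT boxes in their promoters, while many S phase genes answer to E2F factors. Macrophages in tissue can arise from blood monocytes or renew by division in place, and in mouse tumours both routes are known.

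The 7 genes of the rule are late-cycle genes except Tyms, the thymidylate synthase. In GRCm38, with GENCODE vM21 gene models, Top2a, the topoisomerase that untangles DNA before mitosis, lies at chr11:98992943-99024189 on the minus strand. Birc5 at chr11:117849251-117855743 (plus strand) and Cdca8 at chr4:124918465-124939311 (minus strand) encode survivin and borealin of the chromosomal passenger complex. Ube2c at chr2:164769898-164778822 (plus strand) encodes a ubiquitin carrier of the anaphase-promoting complex, and Cdk1 at chr10:69335146-69352938 (minus strand) the mitotic kinase. Mki67, the chromosome surface protein Ki-67, lies at chr7:135689784-135716361 and Tyms at chr5:30058202-30073617, both on the minus strand.

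The promoters of these genes, which the rule itself brings together in the same cells, were read for the letters of 3 motifs. The cell cycle homology region was searched as TTTGAA or TTCGAA, the CCAAT box as CCAAT, and the E2F site as TTTGGCGC, TTTCCCGC, TTTGCCGC or TTTCGCGC, each on both strands in the 250 bases before the RefSeq start (GRCm38.p6, 27025 genes). Shown are the last 100 bases before that start, 5′ to 3′ on the strand of the gene, with any of these motifs in capitals: Top2a at chr11:99024190-99024289 (minus strand), Cdk1 at chr10:69352913-69353012 (minus strand, where GENCODE starts the gene inside the window), Mcm3, a helicase subunit of S phase, at chr1:20820313-20820412 (minus strand), Birc5 at chr11:117849137-117849236 (plus strand) and Tyms at chr5:30073626-30073725 (minus strand).
Top2a: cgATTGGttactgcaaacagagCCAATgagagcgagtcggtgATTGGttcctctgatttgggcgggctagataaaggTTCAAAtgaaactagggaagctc
Cdk1: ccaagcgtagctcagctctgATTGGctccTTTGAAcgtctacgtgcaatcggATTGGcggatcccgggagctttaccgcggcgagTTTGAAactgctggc
Mcm3: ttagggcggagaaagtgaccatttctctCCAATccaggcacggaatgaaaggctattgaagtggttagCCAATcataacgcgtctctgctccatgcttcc
Birc5: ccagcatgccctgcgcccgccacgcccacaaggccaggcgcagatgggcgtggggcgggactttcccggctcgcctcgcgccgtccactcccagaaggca
Tyms: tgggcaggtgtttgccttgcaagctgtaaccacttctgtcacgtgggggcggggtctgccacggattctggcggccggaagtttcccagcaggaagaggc
Top2a and Cdk1 hold the letters of both the homology region and the CCAAT box, Mcm3 those of the CCAAT box, and Birc5 and Tyms neither. The nearest homology match begins 23 bases before the start in Top2a and 15 bases before it in Cdk1.

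Over the whole 250 bases, the homology letters were in 4 of the 7 rule genes, Top2a, Ube2c, Cdk1 and Mki67, and in 17.4% of all promoters in the table. Both the homology letters and a CCAAT box were in those 4 (57.1%) and in 6.21% of all promoters. Among the listed G2 and M genes, 50 of 62 were matched, and 20 of these (40.0%) held the homology letters, 33 (66.0%) a CCAAT box and 4 (8.0%) an E2F site. Among the S phase genes, 33 of 43 were matched, and 5 (15.2%) held the homology letters, 20 (60.6%) a CCAAT box and 7 (21.2%) an E2F site. Of all promoters, 34.5% held a CCAAT box and 1.91% an E2F site. A match describes the letters and is neither a site nor a cause.

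Each of the 7 genes was found in 42.3% to 64.0% of the proliferating cells, as the rule makes likely. Birc5 had a UMI in 64.0% of them and in 2.59% of the other monocytic cells, Top2a in 61.3% and 4.81%, Ube2c in 62.2% and 3.29%, Cdca8 in 51.4% and 2.78%, Tyms in 49.5% and 6.01%, and Cdk1 in 42.3% and 2.41%. Mki67 stood apart, with a UMI in 64.0% of the proliferating cells and in 16.5% of the other monocytic cells. As a background, barcodes with more neutrophil than monocytic UMIs, at a median of 2577 UMIs against 2701 for monocytic barcodes but with 40 of 1331 at 10000 UMIs or more against 516 of 1691, had Mki67 in 3.61%, Top2a in 1.80%, Birc5 in 1.58% and Cdk1 in 0.902% of 1331 barcodes. Only 8 of those 1331 (0.601%, 0.260 to 1.18) had 3 of the 7 genes, 6 of 260 where the label is 4T1p (median 2795.5 UMIs) and 2 of 1071 where it is 4T1m (median 2529).

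The levels of the 7 genes are given in CPM, the UMIs of a gene per 1000000 UMIs summed over a group of cells. Top2a was at 339 CPM in the 38 proliferating cells of the library labelled 4T1p and at 155 in the 73 of the library labelled 4T1m, against 7.63 and 10.8 in the other monocytic cells. Mki67 was at 292 and 262 CPM against 47.5 and 68.0. Mki67 had a UMI in 19 of the 38 proliferating cells of the library labelled 4T1p and in 52 of the 73 of the other library, and Top2a in 26 and 42 of them, and the rule used both genes. Birc5 was at 232 and 159 CPM against 7.87 and 2.97, and Cdca8 at 113 and 85.9 against 3.82 and 5.01. The most UMIs of 1 of these genes in 1 cell were 34 of Top2a and 28 of Mki67.

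The threshold of 3 genes cuts through a series that falls without a gap. The S phase list meant here joins 43 genes of origin licensing, the fork and deoxynucleotide supply, and the G2 and M list 62 genes of mitotic cyclins and kinases, the spindle, the kinetochore and condensin, and neither holds a gene of the rule. Of the 1691 monocytic cells, 1092 had none of the 7 genes, 369 had 1, 119 had 2, 56 had 3, 24 had 4, 15 had 5, 13 had 6 and 3 had 7. Just inside the threshold, the 56 cells with 3 genes had a median of 15.5 UMIs over the S phase and the G2 and M lists, and just outside it the 119 cells with 2 genes had 12. Cells with 0 or 1 gene had 3 and cells with 4 or more had 41. Summed over cells, the S phase list was at 499, 729, 1269 and 2174 CPM and the G2 and M list at 402, 562, 1252 and 3391 CPM in cells with 0 or 1, 2, 3, and 4 or more genes. The classes differ in depth, with medians of 2361, 11529, 4479 and 5796 UMIs. Under 10000 UMIs the S phase list was at 656, 2315, 2673 and 2873 CPM and the G2 and M list at 485, 2251, 3989 and 5427 CPM in the same order. At 10000 or more UMIs the S phase list was at 438, 563, 931 and 1942 CPM and the G2 and M list at 370, 385, 592 and 2714. Cells with 2 genes thus stood nearer to cells with 3 genes in S phase level under 10000 UMIs, and nearer to cells with 0 or 1 at or above it.

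Proliferating cells were 4.90% (3.49 to 6.66) of the 776 monocytic cells in the library labelled 4T1p and 7.98% (6.31 to 9.93) of the 915 in the library labelled 4T1m. A gene is found more easily in a deep barcode, and the median depth of monocytic barcodes was 1807.5 UMIs in the first library and 5007 in the second. When each barcode was thinned at random to 1000 UMIs, the shares were 2.16% (11 of 510) and 2.48% (16 of 646), with 235 and 169 shallower barcodes left out. Thinned to 2000 UMIs they were 3.58% (13 of 363) and 2.56% (14 of 547), with 407 and 331 left out, and thinned to 5000 UMIs 3.69% (9 of 244) and 3.33% (15 of 451), with 531 and 457 left out. The order of the libraries was thus not the same at each thinning depth. No difference in the share was detectable after thinning, which left 9 to 16 proliferating cells per library.

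**Figure D1:**
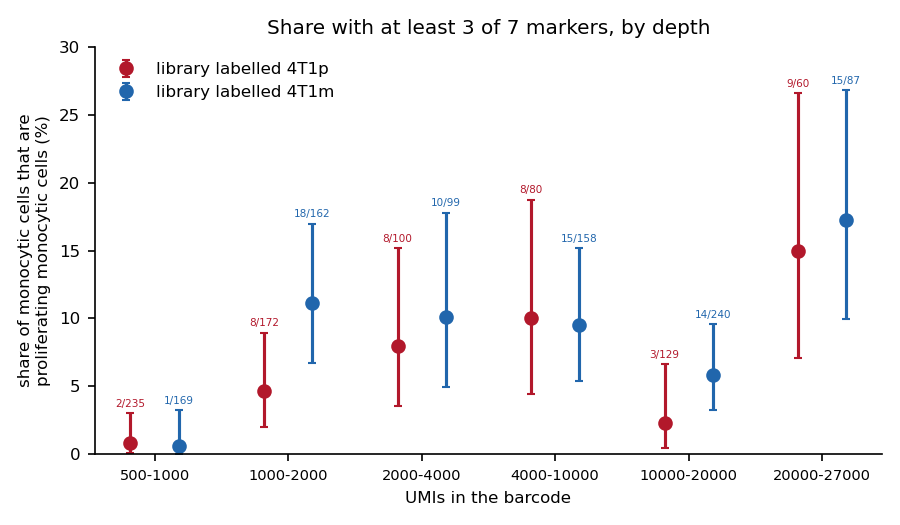
Share of monocytic barcodes with at least 3 of the 7 genes (vertical axis, percent) in 6 ranges of UMIs per barcode (horizontal axis), with points for each library, exact binomial 95% intervals as bars and counts above them. The share is below 1% in barcodes of 500 to 1000 UMIs, drops at 10000 to 20000 UMIs and is highest, at 15.0% and 17.2%, at 20000 to 27000, and the intervals of the libraries overlap in each range.

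The share did not increase steadily with depth. It was 0.851% and 0.592% in barcodes of 500 to 1000 UMIs, 10.0% and 9.49% at 4000 to 10000, 2.33% and 5.83% at 10000 to 20000, and 15.0% and 17.2% at 20000 to 27000, with the library labelled 4T1p first. The plot of the share by depth shows this dip in both libraries. Thinned to 2000 UMIs, barcodes that began under 10000 UMIs were proliferating in 6.74% (12 of 178) and 4.68% (11 of 235), and those that began at 10000 or more in 0.541% (1 of 185) and 0.962% (3 of 312). Thinned to 5000 UMIs, the shares were 5.36% (3 of 56) and 6.30% (8 of 127) for barcodes that began under 10000 UMIs and 3.19% (6 of 188) and 2.16% (7 of 324) for the others. Thinned to 1000 UMIs, they were 2.98% (10 of 336) and 4.38% (16 of 365), against 0.575% (1 of 174) and 0% (0 of 281). The share was thus higher in barcodes that were shallow to begin with at each thinning depth. The intervals overlapped at 5000 UMIs in both libraries and at 2000 UMIs in the library labelled 4T1m (2.36 to 8.22 against 0.199 to 2.78). At 1000 UMIs they overlapped in the library labelled 4T1p (1.44 to 5.41 against 0.0145 to 3.16) but not in the library labelled 4T1m (2.53 to 7.02 against 0 to 1.30).

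The proliferating cells themselves fell into 2 depth ranges, so the main differences below are also given for barcodes under and at or above 10000 UMIs, a limit chosen after the values were seen. Under it lay 70 cells (26 from the library labelled 4T1p, 44 from that labelled 4T1m) with a median of 2683.5 UMIs. At or above it lay 41 (12 and 29) with a median of 21505, which hold 77.8% of the 1057818 UMIs of all 111 cells. The nearest cells on either side had 9886 and 10057 UMIs, and 8 lay between 8000 and 12000. The sums over all proliferating cells are therefore mostly those of the 41 deep cells.

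Malat1, a long noncoding RNA that stays in the nucleus (chr19:5795690-5802672, minus strand), was lower in shallow proliferating cells than in other shallow monocytic cells. It was at 943 CPM in the 70 cells under 10000 UMIs and at 12444 CPM in the 1105 other monocytic cells of that range. The difference was present in both libraries, with 627 against 6556 CPM in the library labelled 4T1p and 1115 against 16616 in the library labelled 4T1m. No Malat1 UMI was found in 49 of the 70 (70.0%) and in 648 of the 1105 (58.6%). The difference in CPM grew with depth within this range, and 30056 of the Malat1 UMIs of the other cells came from the 215 of 4000 to 10000 UMIs. There Malat1 was at 0 in 13 of 23 proliferating cells (56.5%) and in 35 of 215 others (16.3%), and at 2000 to 4000 UMIs in 15 of 18 (83.3%) and in 102 of 181 (56.4%). The levels were 1461 against 19797 CPM at 4000 to 10000 UMIs and 55.0 against 5447 CPM at 2000 to 4000, where the ratio was largest. Below 2000 UMIs the shares at 0 were alike, with 19 of 26 (73.1%) and 205 of 308 (66.6%) at 1000 to 2000 UMIs and 2 of 3 and 306 of 401 (76.3%) at 500 to 1000, at levels of 359 against 2018 and 471 against 1137 CPM. Among deep cells the levels lay closer, at 11109 and 15028 CPM, with no cell of either kind at 0.

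**Figure D2:**
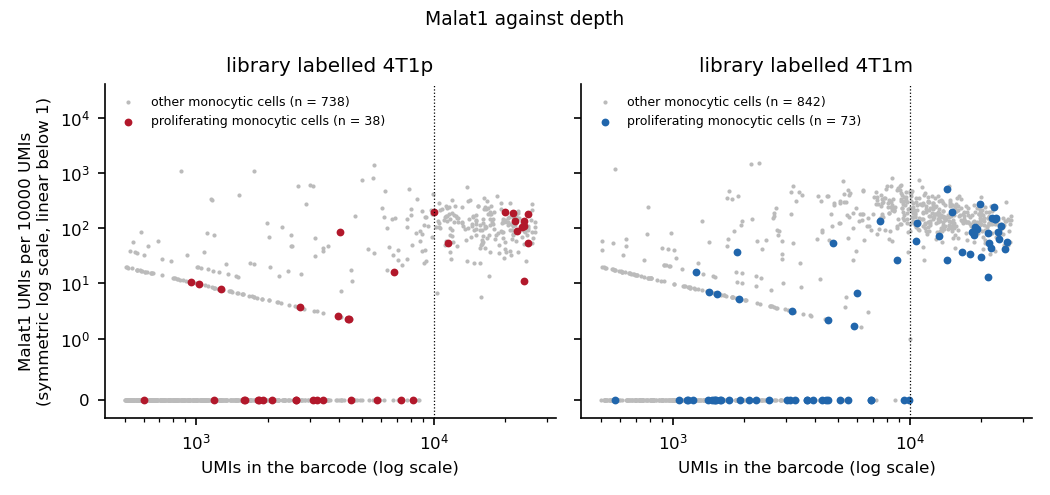
Malat1 UMIs per 10000 UMIs (vertical axis, symmetric log scale, linear below 1) against UMIs in the barcode (horizontal axis, log scale) for each monocytic cell, with proliferating cells as large coloured points and the others in grey, the library labelled 4T1p on the left and 4T1m on the right. Of the 70 proliferating cells left of the dotted line at 10000 UMIs, 49 are at 0, while each deep cell is above 0.

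Under 10000 UMIs other RNAs kept in the nucleus were also lower. Neat1, the scaffold of paraspeckles, was at 59.5 CPM in shallow proliferating cells against 616 in other shallow monocytic cells, and at 1339 against 941 in deep cells. Xist, which coats the inactive X chromosome of female cells, was at 110 against 655 CPM in shallow cells and at 1071 against 1011 in deep cells. Kcnq1ot1, an imprinted antisense RNA, had 0 UMIs in shallow proliferating cells, which allows up to 3 UMIs, against 37.1 in other shallow cells, and was at 116 against 108 CPM in deep cells. All 4 nuclear RNAs were thus lower in proliferating than in other cells under 10000 UMIs. In deep cells the libraries differed, since Xist was at 1222 against 829 CPM and Kcnq1ot1 at 154 against 67.0 in the 12 cells of the library labelled 4T1p, but at 1004 against 1128 and at 98.3 against 133 in the 29 cells of the library labelled 4T1m.

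Ribosomal protein messages did not follow the nuclear RNAs, while the mitochondrial share did in its direction, though by less. Ribosomal protein genes made up 18.3% of the UMIs of shallow proliferating cells and 15.4% of those of other shallow monocytic cells. Mitochondrial UMIs made up 3.20% and 4.56% in shallow cells (1.59% and 3.61% where the label is 4T1p, 4.07% and 5.23% where it is 4T1m), and in deep cells 6.33% and 5.28%. Ptprc, the leukocyte antigen CD45, had a UMI in 23 of the 70 shallow proliferating cells (32.9%, 22.1 to 45.1) and in 33.8% of other shallow monocytic cells. The median depths of these cells were 2683.5 and 1350 UMIs, and the level of Ptprc was lower in the first, at 285 CPM (221 to 362) against 483 (457 to 510). In deep cells it was at 633 against 702 CPM, with a UMI in 41 of 41 proliferating cells. Depth and nuclear RNA thus differ between proliferating and other cells together with the genes described next, and their part in those differences was not tested.

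More G2 and M than S phase UMIs was the commoner state over all proliferating cells, with 62 genes on the first list and 43 on the second. The S phase list counted more in 36 of the 111 (32.4%, 23.9 to 42.0), the G2 and M list in 70, and both were equal in 5. By library the S phase list counted more in 13 of 38 (34.2%, 19.6 to 51.4) and in 23 of 73 (31.5%, 21.1 to 43.4), and by depth in 19 of 70 shallow (27.1%) and 17 of 41 deep cells (41.5%). Over all depths the libraries were close, and the intervals overlap. In deep cells of the library labelled 4T1p the S phase list counted more in 7 of 12 (58.3%, 27.7 to 84.8), where G2 and M was not the commoner side, and in those of the library labelled 4T1m in 10 of 29 (34.5%, 17.9 to 54.3). A cell held 0 to 108 S phase UMIs (median 8) and 1 to 196 G2 and M UMIs (median 14), and in 28 cells the S phase share lay between 40% and 60%. Because 6 of the 7 genes of the rule are G2 and M genes, the rule itself favours that side.

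**Figure D3:**
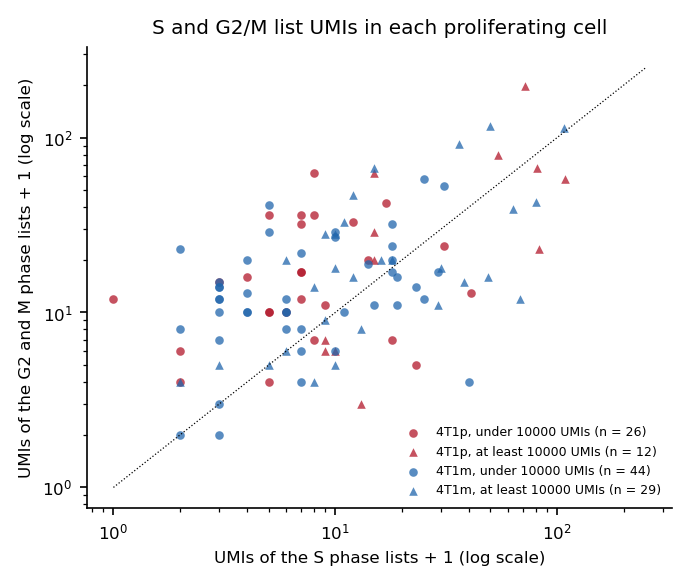
UMIs of the S phase list plus 1 (horizontal axis, log scale) against UMIs of the G2 and M list plus 1 (vertical axis, log scale) in each proliferating cell, red for the library labelled 4T1p and blue for 4T1m, circles under and triangles at or above 10000 UMIs, with a dotted line where both are equal. Of the 111 cells, 70 have more G2 and M UMIs, 36 more S phase UMIs and 5 the same number of both.

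Proliferating and other monocytic cells were next compared over all genes within each library. Of 4623 genes with at least 100 UMIs in monocytic cells of each library, 49 (1.06%) were at least 2-fold higher in proliferating cells in both libraries, and 55 (1.19%) were at least 2-fold lower in both, the limits by which a gene is called here. Scaled by size factors from the median ratio of genes, 39 were higher and 69 lower. The median log2 ratio over all genes was 0.10 for the library labelled 4T1p, against 0.09 for the library labelled 4T1m. The rule used these same cells, so nothing is read from how many cell cycle genes stand among the 49. Log2 ratios below are of CPM in proliferating over other monocytic cells, with the library labelled 4T1p first.

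Genes that license origins and form the helicase, a list of 18, were at 721 CPM in proliferating and 196 CPM in other monocytic cells of the library labelled 4T1p (log2 ratio 1.88, 1.66 to 2.09). In the library labelled 4T1m they were at 568 and 206 CPM (1.46, 1.30 to 1.62). Of the 2 genes deep enough to be called, both, Mcm3 and Mcm4 of the helicase ring, were higher. Mcm3 was at 95.3 CPM against 24.1 and at 84.5 against 23.6, and Mcm5, with too few UMIs to be called, at 95.3 against 11.0 and at 47.1 against 10.0. Mcm3 and Mcm4 (1.22 and 1.23) thus had like ratios in both libraries, while the list as a whole had the larger ratio in the library labelled 4T1p.

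Pclaf, which binds the sliding clamp at the replication fork, was among the most enriched S phase genes, at 319 CPM against 14.8 and at 190 against 13.5, with a UMI in 74 of the 111 cells. Pcna, the clamp itself, differed far less, with log2 ratios of 0.90 and 0.37. The 18 fork genes together were at 920 against 240 CPM (1.94, 1.75 to 2.12) and at 615 against 210 CPM (1.55, 1.39 to 1.71), and Pclaf was the 1 of 4 deep enough that was called higher.

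The 7 genes of deoxynucleotide supply were together at 470 against 112 CPM (2.08, 1.81 to 2.34) and at 374 against 99.2 CPM (1.91, 1.70 to 2.12). Rrm2, the reductase subunit made in S phase, was at 77.4 against 3.82 CPM and at 31.9 against 3.91, and Tk1, thymidine kinase, at 53.6 against 5.01 and at 41.5 against 3.29. Rrm1, the constant reductase subunit, had log2 ratios of 2.31 and 2.74, and none of these 3 had enough UMIs to be called. Dtymk, thymidylate kinase, was the gene called higher of 2 deep enough, with 1.27 and 1.02, and Dctpp1, which degrades surplus nucleotides, the other, with 1.29 and 0.82.

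Genes of new chromatin were higher too. H2afz, the histone variant H2A.Z, was at 1295 against 537 CPM and at 1069 against 436, with a UMI in 108 of the 111 cells. Ezh2, the methyltransferase of Polycomb, was at 83.4 against 21.7 and at 83.1 against 23.9 CPM, and Uhrf1, which guides maintenance of DNA methylation, had log2 ratios of 3.92 and 2.83. Of 3 chromatin assembly genes deep enough, 3 were called higher. Replication-dependent histones, whose messages mostly lack poly(A) tails and are poorly captured by this assay, were at 170 against 26.2 CPM and at 143 against 38.9, and 0 of 12 were deep enough to call. Homologous recombination genes were at 146 against 16.0 and at 94.2 against 18.9 CPM, with 0 of 10 deep enough.

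Of the 17 mitotic cyclins, kinases and regulators, 2 were deep enough and 1, Ube2s, was called higher. The list was at 1063 against 227 CPM (2.23, 2.05 to 2.40) and at 780 against 212 CPM (1.88, 1.73 to 2.02). Ccna2, the A type cyclin, was at 59.6 against 1.67 and at 38.8 against 1.41 CPM, and Ccnb2, a B type cyclin, had log2 ratios of 4.85 and 4.26. Cdc20, which activates the anaphase-promoting complex, differed more between libraries, at 80.4 against 3.34 and at 20.8 against 0.782 CPM. Cks1b, the small partner of the cyclin kinases, was at 125 against 10.3 and at 112 against 10.9 CPM. Ube2s, a ubiquitin carrier of the same complex, was at 268 against 129 and at 249 against 105 CPM, a smaller ratio on a higher level in other monocytic cells.

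The motor and spindle genes had the largest ratios of the division lists outside the rule in both libraries. The 20 genes were at 738 against 42.0 CPM (4.14, 3.85 to 4.42) and at 424 against 47.2 CPM (3.17, 2.93 to 3.40). Nusap1 and Tpx2, which organise spindle microtubules, were at 86.3 against 2.39 and 56.6 against 2.63 CPM in the library labelled 4T1p, and at 30.5 against 2.19 and 60.9 against 2.66 in the library labelled 4T1m. Kif11, the motor that parts the spindle poles, was at 47.6 against 0.477 and at 13.9 against 1.25 CPM. None of the 20 had enough UMIs to be called, and 1 cell held 61 of the 248 UMIs of the list in the library labelled 4T1p (24.6%).

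Kinetochore and checkpoint genes were at 798 against 78.0 CPM (3.35, 3.12 to 3.59) and at 510 against 80.1 CPM (2.67, 2.47 to 2.87). Cenpa, the histone that marks centromeres, was the 1 gene deep enough of 16 and was called higher, at 149 against 29.8 and at 109 against 33.0 CPM. Cenpe, a kinetochore motor, was at 95.3 against 2.62 and at 73.4 against 3.29 CPM. Smc4, a condensin subunit, was likewise the 1 gene deep enough of 8 in the condensin and cohesin list and was higher, at 179 against 43.0 and at 159 against 52.4 CPM. Smc2, its partner, had log2 ratios of 3.40 and 3.08. Smc2 had too few UMIs to be called.

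The abundant cytoskeletal and chromatin genes that accompany division were the best measured. Of 8 tubulin, stathmin and high mobility group genes deep enough, 6 were called higher, and the list was at 4124 against 1300 CPM (1.67, 1.58 to 1.75) and at 2587 against 1016 CPM (1.35, 1.27 to 1.42). Stmn1, stathmin, which frees tubulin from microtubules, was at 366 against 35.3 and at 223 against 23.8 CPM. Hmgb2, a chromatin protein of cycling cells, was at 1012 against 290 and at 669 against 237 CPM. Tubb5, a beta tubulin, was at 1024 against 350 and at 723 against 276 CPM. Hmgb1 and Lmnb1 were the 2 not called, with log2 ratios of 1.46 and 0.88 and of 1.21 and 0.10. Tubulins, Hmgb1, Hmgn2 and Npm1 have close copies in the genome, so their counts are uncertain as far as reads were shared.

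**Figure D4:**
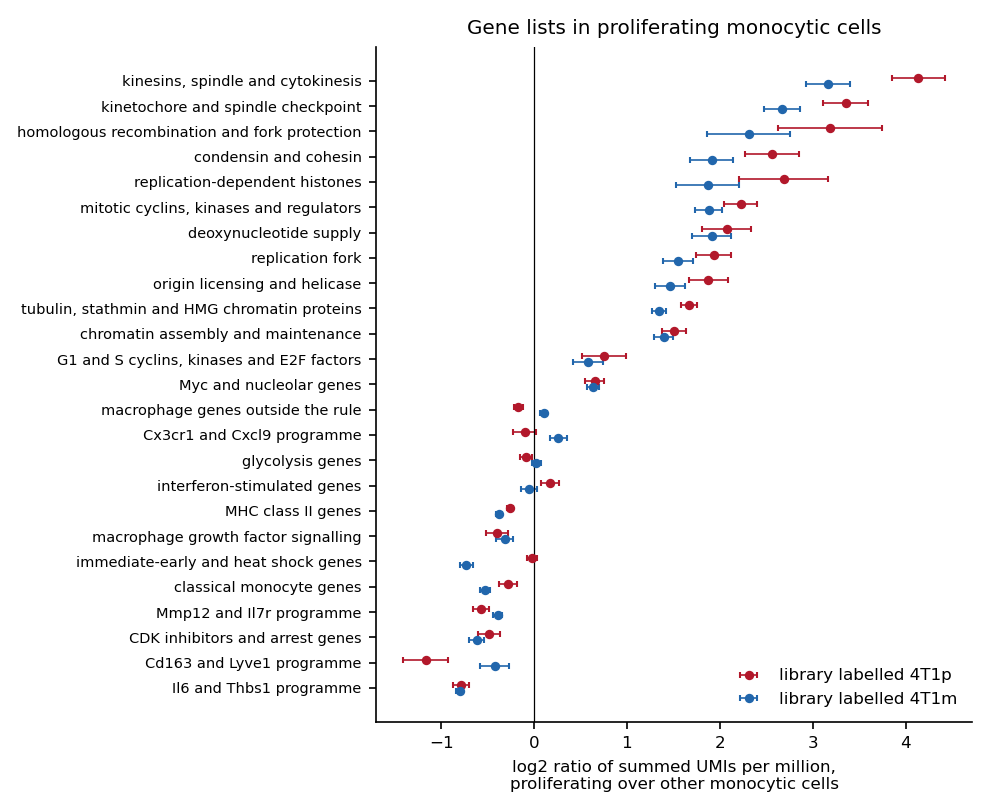
Log2 ratio of CPM in proliferating over other monocytic cells (horizontal axis) for 25 gene lists outside the rule (vertical axis), in red for the library labelled 4T1p and in blue for 4T1m, with 95% counting intervals as bars. Lists of division lie right of 0, from 0.58 for G1 and S cyclins to 4.14 for kinesins, while lists of macrophage and monocyte genes lie near or left of 0.

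The division lists were higher in proliferating cells in both depth ranges. Mitotic cyclins and kinases had log2 ratios of 3.07 and 2.50 under 10000 UMIs and of 1.61 and 1.59 at or above it, and tubulin, stathmin and high mobility group genes 2.23 and 2.12 against 1.35 and 0.97. Fork genes had 1.89 and 2.15 in shallow cells and 1.99 and 1.25 in deep cells, licensing genes 1.62 and 1.73 and then 2.03 and 1.38. Kinetochore genes had 3.33 and 3.29 in shallow and 3.44 and 2.34 in deep cells. In the library labelled 4T1m each of these lists had its larger ratio in shallow cells.

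The G1 side of the cycle differed little. Of the 5 genes deep enough among 13 G1 and S cyclins, kinases and E2F factors, 0 were called in either direction, and the list was at 506 against 300 CPM (0.76) and at 519 against 347 (0.58). Ccnd1 and Ccnd2, the D type cyclins that start the cycle, had log2 ratios of 0.69 and 0.38 and of 0.74 and 0.60. Myc had 4 and 1 UMIs in the proliferating cells. Nucleolar genes of ribosome production, with Ncl and Npm1 the most abundant, were at 2451 against 1558 CPM (0.65) and at 2986 against 1923 (0.63), with 0 of 7 called. Ncl, nucleolin, was at 667 against 372 and at 795 against 534 CPM.

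CDK inhibitors and arrest genes were lower as a sum and in no case called. The list was at 1840 against 2574 CPM (-0.48) and at 1788 against 2739 (-0.61), with a wider gap under 10000 UMIs (-1.25 and -1.66). Cdkn1a, the inhibitor p21, was at 482 against 708 and at 459 against 591 CPM, and Btg1, an antiproliferative gene, at 670 against 1183 and at 1022 against 1777 CPM. Cdkn2c, the inhibitor p18, went the other way on few UMIs (18 and 11), at 53.6 against 6.44 and at 15.2 against 2.97 CPM.

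Macrophage genes were at similar levels in proliferating and other monocytic cells. Of 12 macrophage genes outside the rule, 12 were deep enough and 0 were called, and the list was at 10389 against 11678 CPM (-0.17) and at 9079 against 8446 (0.10). C1qb and C1qc, chains of complement C1q, had log2 ratios of 0.19 and 0.55 and of 0.17 and 0.58. Mrc1, the mannose receptor, was at 387 against 354 and at 512 against 516 CPM, and Adgre1, the F4/80 antigen, at 155 against 151 and at 77.6 against 95.6 CPM. Csf1r, the receptor of the macrophage growth factor and a gene of the rule, was at 518 against 540 and at 481 against 486 CPM. Macrophage genes that the rule did not use were thus at levels near those of the other cells. Both kinds of cell had passed the same monocytic limits, so this describes them and does not test the monocytic label.

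Classical monocyte genes were lower in part, with 4 of 9 called lower and 0 higher. The summed log2 ratio was -0.28 and -0.53, and lay mostly in shallow cells (-1.66 and -1.20, against -0.091 and -0.40 in deep cells). Plac8, a gene of Ly6C-high monocytes, was at 119 against 269 and at 60.9 against 285 CPM. S100a4 and S100a6, calcium-binding proteins of monocytes, had log2 ratios of -4.00 and -1.36 and of -3.10 and -1.72, and S100a4 rests on 2 UMIs in the library labelled 4T1p. Chil3, the chitinase-like protein of immature monocytes, had 0 UMIs in the library labelled 4T1p, against 52.0 CPM in the other cells, and a log2 ratio of -3.06 in the other library. Ccr2, the receptor that brings monocytes out of the marrow, did not share this, at 316 against 315 and at 382 against 430 CPM. Ly6c2, an antigen of the GR-1 antibody, had 0 and 14 UMIs in the proliferating cells, and Ly6g, the other, had 0 and 1. Their levels in the other monocytic cells are not given here, so no difference is read from these counts.

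Among macrophage programmes named after their leading genes, the Il6 and Thbs1 programme was lower as a sum, at 3368 against 5786 CPM (-0.78) and at 7600 against 13236 (-0.80), with -0.45 and -1.91 in shallow cells and -0.87 and -0.68 in deep cells, though 0 of its 8 genes were called. In the Mmp12 and Il7r programme 3 of 7 were lower, among them Mmp12, macrophage elastase, with log2 ratios of -3.17 and -1.02, and Tnfrsf9, the receptor 4-1BB, at 14.9 against 101 and at 69.3 against 178 CPM. Spp1, osteopontin, of the same list was level, at 1897 against 1910 and at 2513 against 2766 CPM. In the Cd163 and Lyve1 programme of resident macrophages 2 of 5 were lower, and Lyve1 and Timd4 had 0 UMIs in the proliferating cells. The Cx3cr1 and Cxcl9 programme (0 of 11 called), the MHC class II genes (0 of 7), the interferon-stimulated genes (0 of 8), the immediate-early and heat shock genes (0 of 8), glycolysis (0 of 10) and macrophage growth factor signalling (0 of 6) had no member past the limit in both libraries. The immediate-early and heat shock genes nevertheless had summed ratios of -1.14 and -1.19 in shallow cells, and of 0.087 and -0.60 in deep cells. MHC class II genes had -0.26 and -0.38 over all cells. Cx3cr1, the fractalkine receptor, was at 298 against 240 and at 266 against 179 CPM.

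Among genes outside every list, the 10 with the highest ratios are given here without a common theme. Tmpo, a lamina-associated protein, was at 167 against 33.6 and at 150 against 44.6 CPM, and Rangap1, which works in nuclear transport, at 80.4 against 24.6 and at 70.6 against 20.7. The gene 2700094K13Rik was at 199 against 41.0 and at 130 against 26.3 CPM. Lsm2 and Lsm5, parts of the U6 spliceosome ring, had log2 ratios of 1.48 and 1.46 and of 1.33 and 1.37. Sae1, of the SUMO-activating enzyme, had 1.85 and 1.47, Anp32e, a chaperone of H2A.Z, 1.48 and 1.37, Nucks1, a nuclear DNA-binding protein, 1.38 and 1.36, and H2afv, the other H2A.Z gene, 1.75 and 1.32. The histone gene Hist1h2bc had 1.93 and 1.29, but under 10000 UMIs it was level, at 60.3 against 62.8 and at 45.9 against 43.3 CPM.

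The 10 genes with the lowest ratios outside the lists follow, likewise without a common theme. Inhba, the subunit of activin A, was at 2.98 against 71.6 and at 8.31 against 172 CPM, log2 ratios of -4.59 and -4.38. Saa3, an acute phase protein, had -3.36 and -3.66, Retnla, a gene of alternative activation, -3.03 in the library labelled 4T1p and 0 UMIs in the library labelled 4T1m, and Slpi, a protease inhibitor, was at 41.7 against 129 and at 79.0 against 517 CPM. F3, tissue factor, had -3.03 and -1.99, Egln3, an oxygen-sensing hydroxylase, -3.79 and -1.68, and Rgcc, a cell cycle regulator, -1.81 and -1.72. Cd24a, a surface glycoprotein, had -2.34 and -3.08, and Hspb1, a small heat shock protein, -1.89 and -2.97. Gdf15, a stress cytokine, had no UMI among the proliferating cells of the library labelled 4T1p, and -1.92 was its ratio in the other. These ratios rest on few UMIs in proliferating cells, in the library labelled 4T1p on 1 each for Inhba (interval -9.90 to -2.10), Retnla, F3 and Egln3 and 2 for Saa3. Under other settings F3 and Hspb1 changed sign in the library labelled 4T1p and Saa3 and Gdf15 in each library (Saa3 to 0.47 in the first when thinned to 2000 UMIs and to 0.33 in the second with 2 of the 7 genes required), so their direction is uncertain, while Slpi, on 14 and 57 UMIs, was better measured.

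Markers of other cell types were few in the 111 cells, apart from 2 cells of the library labelled 4T1m. Erythroid genes had 2807 UMIs, of which 2797 lay in 1 cell of 25330 UMIs, with Hbb-bs the most abundant. T and NK cell genes had 26 UMIs, of which 23 lay in 1 cell of 22681 UMIs (Cd3g 10, Cd3e 8, Cd3d 3), with Nkg7, Cd8a and Ncr1 at 0. Whether these 2 barcodes hold more than 1 cell was not settled. The counts of genes past 2-fold between the libraries are given with and without them, and the list values elsewhere include them. Without them, homologous recombination genes in proliferating cells of the library labelled 4T1m were at 69.7 CPM in place of 94.2. Licensing genes there were at 530 CPM in place of 568, and kinesin and spindle genes at 415 in place of 424. High Scrublet scores, a measure of doublets, marked 3 proliferating cells of the library labelled 4T1m, and whether these 2 were among them is not given here.

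Carcinoma genes had 20 UMIs (18.9 CPM, against 28.9 in the other monocytic cells), of which 12 were Cdh1, at most 2 in 1 cell, and the epithelial genes Epcam, Krt19, Krt14, Krt5, Cldn4 and Cldn7 were at 0. Fibroblast genes had 4 UMIs, endothelial genes 1, B cell genes 2 and mast cell genes 0. Dendritic cell genes had 24, of which 19 were Batf3, with Flt3, Itgae, Fscn1 and Siglech at 0. Myeloid progenitor genes had 27, of which 25 were Prtn3, a granule protease, with Cd34, Flt3, Elane, Mpo, Ctsg, Ms4a3 and Gata2 at 0. The progenitor genes named here as at 0 were thus not detected in these cells, where 0 of 1057818 UMIs allows up to 3, but Prtn3 was. The progenitor list as a whole was at 11.9 CPM against 28.9 in other monocytic cells of the library labelled 4T1p. In the library labelled 4T1m it was at 31.9 against 45.5 CPM.

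Neutrophil genes were present at low levels. The 4 neutrophil genes of the rule had 387 UMIs, of which 222 were S100a9, with at most 135 over the 4 genes in 1 cell. The immature neutrophil list had 31, led by Retnlg with 12 and with the granule genes Camp and Fcnb at 0, and the mature list had 202, led by Trem1 with 71.

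Between the libraries, 1613 genes had at least 100 UMIs in proliferating cells of both together. The library labelled 4T1m was at least 2-fold higher in 116 (7.19%) and at least 2-fold lower in 45 (2.79%). In the other monocytic cells, 1607 of these genes were compared, and 87 (5.41%) were higher and 31 (1.93%) lower. Of the 116, 112 had the same sign in the other monocytic cells and 56 were past 2-fold there, and of the 45 these counts were 44 and 20. Without the 2 barcodes rich in erythroid or T cell genes, 105 were higher and 44 lower among 1523. The differences of the proliferating cells were thus mostly of the same sign as those of the monocytic cells around them. Ratios below are of the library labelled 4T1m over the library labelled 4T1p, and each would change its sign if the doubted labels were exchanged.

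MHC class II genes, which present antigen to CD4 T cells, were lower in the library labelled 4T1m, at 11383 CPM against 26310 (log2 ratio -1.21, -1.25 to -1.17). In the other monocytic cells the ratio was -1.09, and in proliferating cells under and above 10000 UMIs -1.03 and -1.26. Of 6 genes deep enough, 5 were called lower. Cd74, the invariant chain, was at 13691 CPM in the library labelled 4T1p and at 5873 in the library labelled 4T1m. H2-DMb1, which loads peptides onto class II, was at 560 and 170 CPM, and in deep cells had a median of 10.5 UMIs (0 to 28) and 1 (0 to 16), ranges that overlap. This difference was present at both depths and did not rest on 1 cell, since without the cell richest in H2-DMb1 its ratio was -1.59 in place of -1.72.

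Immediate-early and heat shock genes were lower in the library labelled 4T1m, with 7 of 8 called, and the difference in their sum lay in deep cells. The list was at 2697 CPM against 8001 (-1.57, -1.65 to -1.48), against -0.86 in the other monocytic cells. Under 10000 UMIs the ratio was -0.03 and at or above it -1.80, though Fos was lower in shallow cells too (-0.65, -1.15 to -0.14). Fos and Jun, the AP-1 factors induced within minutes of a stimulus, were at 1921 and 1402 CPM in the library labelled 4T1p and at 449 and 236 in the library labelled 4T1m. In deep cells Fos had a median of 36.5 UMIs (0 to 133) against 6 (0 to 34), and Jun 30 (3 to 109) against 3 (0 to 14), so the ranges overlap while the medians are far apart.

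Other genes lower in the library labelled 4T1m included Cd69, an activation antigen, at 48.5 CPM against 214, and Btg2, an antiproliferative early gene, at 125 against 503. Ier2, an immediate-early gene, was at 209 against 700 CPM, Hspa1b, a heat shock protein, at 150 against 503, and Tmem176b, a membrane protein of dendritic cells and macrophages, at 88.6 against 262. Under 10000 UMIs the ratios of Hspa1b (0.93, -0.74 to 2.99, on 14 and 4 UMIs) and Jun (1.06, -0.28 to 2.65, on 23 and 6 UMIs) had the other sign with intervals that include 0, Ier2 was at -0.037, and Tmem176b turned to 0.48 when barcodes were thinned to 2000 UMIs. Ifit2 and Irf1, interferon response genes, had log2 ratios of -2.00 and -1.93, which became -0.86 and -1.38 without the cell richest in each. Irf1 was at 0.12 under 10000 UMIs, and at most 5% mitochondrial UMIs Ifit2 was at 2.18 and Hspa1b at 0.79. The interferon list as a whole had -0.69 (3 of 6 called lower), against -0.46 in the other monocytic cells.

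The Il6 and Thbs1 programme of inflammatory genes was higher in the library labelled 4T1m, at 7600 CPM against 3368 (1.17, 1.08 to 1.27), with 6 of 7 called higher and Tnf, the exception, lower (-1.15). The other monocytic cells had 1.19. Under 10000 UMIs the proliferating cells had 0.05, where the other monocytic cells had 1.52. Il1b, interleukin 1 beta, was at 3330 CPM against 1310, and Ptgs2, the inducible cyclooxygenase, at 727 against 256. Thbs1, thrombospondin 1, was at 248 against 11.9, but 148 of its 183 UMIs lay in 1 cell, and its log2 ratio of 4.38 became 1.88 without it. Il6 itself was at 51.3 CPM against 71.5. The 4 neutrophil genes of the rule were at 485 against 110 CPM in the same cells (2.14) and at 874 against 566 in the other monocytic cells (0.63), and their part in these ratios was not tested.

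Mmp13 and Mmp12, matrix proteases, were higher in the library labelled 4T1m, at 363 CPM against 23.8 and at 533 against 101. Their log2 ratios were 3.93 and 2.40, and 3.63 and 1.90 without the cell richest in each, against 0.79 and 0.25 in the other monocytic cells. Malt1, a signalling protease upstream of NF-kB, was at 227 against 38.7 CPM, with a median of 5 and 1 UMIs in deep cells, and Ell2, an elongation factor, at 140 against 26.8. S100a8, a neutrophil gene that the rule used, was at 172 against 14.9 CPM, but 46 of its 129 UMIs lay in 1 cell and its ratio was below 0 with 2 of the 7 genes required (-0.998) and after thinning (-1.59), beside 1071 neutrophil barcodes in the library labelled 4T1m and 260 in the other. Haemoglobin genes were the highest ratios of all, with 1848 UMIs of Hbb-bs against 1, of which 1841 lay in the erythroid-rich cell. Hba-a1, Hba-a2 and Hbb-bt had 419, 347 and 192 UMIs against 0, at least 65.0-, 53.8- and 29.8-fold higher against a floor of 3 UMIs over the group, almost wholly from that cell, and the split between these near-identical pairs is uncertain.

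**Figure D5:**
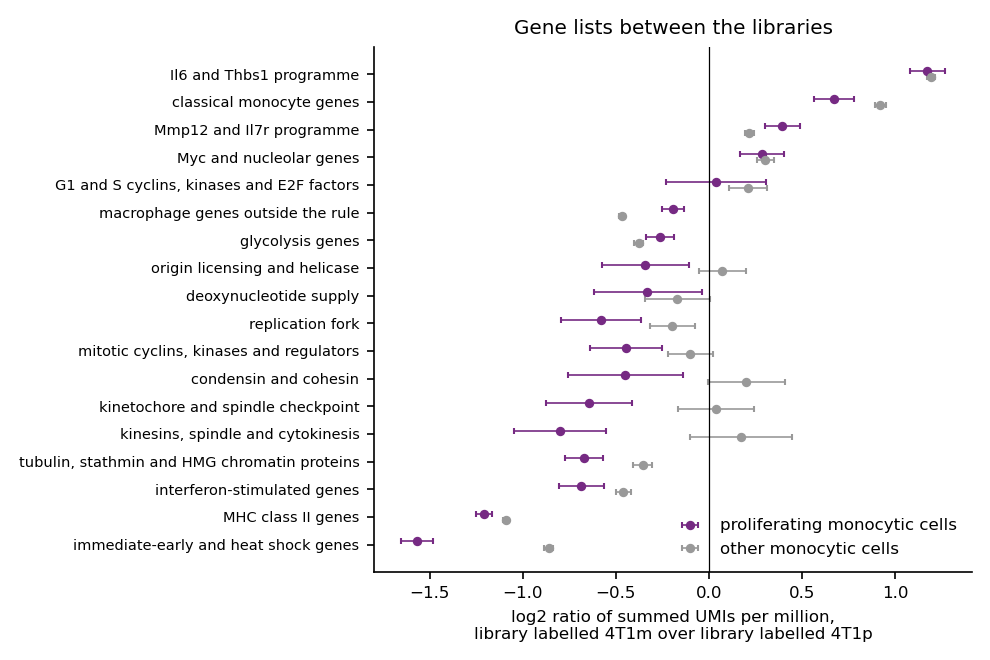
Log2 ratio of CPM in the library labelled 4T1m over the library labelled 4T1p (horizontal axis) for 18 gene lists (vertical axis), in purple for proliferating and in grey for other monocytic cells, with 95% counting intervals as bars. The Il6 and Thbs1 programme lies near 1.2 in both kinds of cell, MHC class II genes at -1.21 and -1.09, and immediate-early and heat shock genes at -1.57 and -0.86.

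Summed over their lists, division genes were somewhat lower in the proliferating cells of the library labelled 4T1m. Between the libraries 0 of 2 mitotic cyclins and kinases, 0 of 1 kinetochore and 0 of 1 fork genes deep enough were called. No kinesin or spindle gene was deep enough, and 1 of 7 tubulin, stathmin and high mobility group genes was called lower. The log2 ratio was -0.80 (-1.05 to -0.55) for kinesins and spindle genes, -0.65 for kinetochore genes, -0.58 for fork genes and -0.45 for mitotic cyclins and kinases, against 0.17, 0.04, -0.20 and -0.10 in the other monocytic cells. Deep cells held most of it for kinesins (-1.13, against -0.29 in shallow cells), kinetochore genes (-0.80 against -0.31) and fork genes (-0.87 against -0.013), but for mitotic cyclins and kinases shallow cells did (-0.66, against -0.10 in deep cells). Top2a had -1.13, a description only, since the cells were chosen on it. The proliferating cells of the library labelled 4T1m include 29 deep cells of 73 and those of the library labelled 4T1p 12 of 38. Exactly 3 of the 7 rule genes were found in 40 of the 73 and in 16 of the 38. The part of depth and of the number of rule genes in these ratios was not tested. G1 and S cyclins (0.04) and nucleolar genes (0.29) did not share the direction, and the single cells that lead each list weigh on it, as for kinesins above.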

How the data were processed

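GR-1+ cells from 4T1p and 4T1m tumours were profiled in 1 library each with the 10x Genomics 3′ v3 assay. The authors aligned the reads to mm10 with Cell Ranger (3.1.0 in the file headers, while the study's methods name another version). They deposited filtered matrices of raw UMI counts, whole numbers per gene and barcode, with Ensembl gene identifiers. Library totals were 9021132 and 14840190 UMIs. From these counts, UMIs were summed over the cells of a group and given per 1000000 UMIs (CPM). The study removed doublets with scDblFinder in its own analysis, after limits that the deposited barcodes have not yet passed, and no doublet removal was applied in the main values here. Members and gene lists were chosen with earlier results of these data known.

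Genes needed at least 100 UMIs (in proliferating cells of both libraries together for the comparison of libraries, in monocytic cells of each library for proliferating against other cells) and a 2-fold ratio to be called. A count of 0 was set to a floor of 3 UMIs. Intervals are 95% Clopper-Pearson or Poisson intervals. Named genes were the 7 genes of the rule, the listed genes, and the 10 highest and 10 lowest ratios in each comparison. For proliferating against other cells these were genes outside the lists with 1 sign in both libraries, ranked by the ratio nearer 0. The ribosomal RNA genes Gm42418 and AY036118 were left out, and Knstrm was not matched. Promoters came from the RefSeq table for GRCm38.p6, gene positions from GENCODE vM21, and Smc4 is not in the promoter table.

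Alternatives changed the number of genes required, the monocytic and neutrophil limits, the mitochondrial and upper limits, the depth by thinning to 2000 UMIs, the gene minimum, the scaling and the weighting of cells, required a Ptprc UMI, or left out barcodes with high Scrublet scores (27 and 76 barcodes, 0 and 3 of them proliferating). Calculations used Python 3.11.15, numpy 2.4.6, pandas 2.3.3, scipy 1.17.1 and scanpy 1.11.5, and were checked on simulated counts.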

Additional observations from a re-analysis of the deposited data

Results flagged for a closer look

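Barcodes beyond the limits of the rule also held its 7 genes. Of 100 monocytic barcodes over 27000 UMIs or 5000 genes with a mitochondrial share within the limit, 65 met the rest of the rule (65.0%, 54.8 to 74.3), 34 of 53 in the library labelled 4T1p and 31 of 47 in the library labelled 4T1m. They had medians of 34567 UMIs, 6 of the 7 genes, 87 S phase and 75 G2 and M UMIs, and Malat1 was at 0 in 0 of them. Of 377 barcodes over the mitochondrial limit but within the other limits, 16 met the rest of the rule (4.24%, 2.44 to 6.80), 6 of 145 and 10 of 232. These 16 had a median of 4747 UMIs, and Malat1 was at 0 in 8 of them. Both kinds of barcode lie outside the cells compared in the report, and for the first kind the 65 compare with 41 proliferating cells between 10000 and 27000 UMIs.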

How the results depend on the processing

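No paired analysis was possible because each condition has 1 library. The share of proliferating cells, 4.90% and 7.98%, was 10.8% and 16.0% with 2 of the 7 genes required, 2.84% and 3.61% with 4, and 8.69% and 10.8% with no upper limit on genes or UMIs, and in the library labelled 4T1m it was 2.56% after thinning to 2000 UMIs. The share with more S phase than G2 and M UMIs, 34.2% in the library labelled 4T1p, was 52.9% with a Ptprc UMI required, 15.4% after thinning and 58.3% at 10000 or more UMIs, and in the library labelled 4T1m, 31.5%, it was 45.2% with 2 of 7 genes. Genes past 2-fold between libraries, 161, became 445 with 2 of 7 genes, 102 with 4 of 7 and also at most 5% mitochondrial UMIs, 410 with no upper limit, 7 after thinning, 648 with a gene minimum of 30, 2679 with none, 280 for a mean over cells and 29 under 10000 UMIs. Genes past 2-fold in proliferating against other cells, 104, became 30 with 2 of 7 genes, 203 with 4, 201 at most 5% mitochondrial UMIs, 178 with no upper limit, 279 with a minimum of 30, 601 with none, 181 under 10000 UMIs and 51 above. Ratios that changed sign between libraries were those of S100a8 (-0.998 with 2 of 7 genes, -1.59 thinned), Tmem176b (0.48 thinned), Ifit2 and Hspa1b (2.18 and 0.79 at most 5% mitochondrial UMIs), and, under 10000 UMIs, Jun (1.06), Irf1 (0.12) and Hspa1b (0.93). Against other monocytic cells they were Saa3 (0.33 in 4T1m with 2 of 7 genes, 0.47 in 4T1p thinned), Gdf15 (0.42 in 4T1p with 2 of 7 genes, 1.10 in 4T1m for a mean over cells), and, in 4T1p, Hspb1 (1.36 with 2 of 7 genes, 1.30 for a mean over cells, 0.31 under 10000 UMIs), Hist1h2bc (-0.059) and F3 (0.18), both under 10000 UMIs. The cause was not tested. Summed list ratios against other cells that had opposite signs under and above 10000 UMIs included the Cx3cr1 and Cxcl9 programme (0.51 and -0.29) and immediate-early genes (-1.14 and 0.087) in 4T1p, and interferon-stimulated genes in 4T1p (-0.28 and 0.22) and 4T1m (-1.12 and 0.070). The alternatives by depth range and without barcodes rich in erythroid or T cell genes were chosen after seeing the data. Depth limits the shares and the genes that could be called, and 1 library per condition leaves the spread between mice unmeasured.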
